A study of Homo sapiens with 24 samples.

Results

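GAS5 and 6 members of the small nucleolar RNA host gene family (SNHG1, SNHG3, SNHG5, SNHG7, SNHG8 and SNHG12) were followed across Pirfenidone treatment of the human lung adenocarcinoma lines A549 and H1975. The members were all probes that the array files name for these 7 genes, 10 of the 34127 probes on the array, which carry 25992 different gene names. Cells of each line were exposed for 6 h or 24 h to 0.75 mg/ml of the anti-fibrotic drug Pirfenidone or to the respective volume of PBS, its solvent, which gave 8 groups of 3 samples and 24 one-color Agilent arrays. Both lines are unmodified established lines, no other agent was added, and each is a single tumor-derived line. The study's methods speak of independent experiments for its data in general, but neither they nor the labels say for these arrays whether the samples of a group were separate cultures. The p-values then measure only the spread between these samples, which may be technical.

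Host genes of this family are transcribed into RNAs whose introns carry small nucleolar RNAs, which guide the chemical modification of ribosomal RNA. The spliced host RNA that remains holds only short reading frames, and nonsense-mediated decay removes it while ribosomes translate it. For that reason such transcripts are known to accumulate when translation or decay is impaired, and GAS5 was first isolated as a transcript of growth-arrested cells. Among the members, GAS5, SNHG1 and SNHG5 host box C/D RNAs, which guide methylation, whereas SNHG3, SNHG7 and SNHG8, and for the most part SNHG12, host box H/ACA RNAs, of which most guide pseudouridylation.

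The probes are shown because they set which part of each host RNA was read. The array files place them on hg19, and they are printed 5′ to 3′ in the sense of the transcript with any AATAAA, the signal that precedes the poly(A) tail, in capitals. The lead probe of a gene is its brightest over all arrays. The GAS5 lead probe (chromosome 1, 173833049 to 173833108, minus strand) ends 3 bases after such a signal. The SNHG1 lead probe lies on chromosome 11 from 62619573 to 62619632, and the SNHG3 probe on chromosome 1 from 28836041 to 28836100. The SNHG5 probe (chromosome 6, 86386868 to 86387159) and the SNHG12 probe (chromosome 1, 28905179 to 28906090) hold 60 bases each but span 292 and 912 bases of the genome, so they cross a splice junction and read spliced RNA. The SNHG7 lead probe lies on chromosome 9 from 139619047 to 139619106, and the SNHG8 lead probe on chromosome 4 from 119200825 to 119200884. No annotation of hg19 was used, so exons are not given.
GAS5: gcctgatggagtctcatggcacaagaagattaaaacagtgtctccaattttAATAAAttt
SNHG1: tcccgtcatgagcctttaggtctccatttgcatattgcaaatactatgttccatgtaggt
SNHG3: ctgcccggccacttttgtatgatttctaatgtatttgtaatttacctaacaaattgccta
SNHG5: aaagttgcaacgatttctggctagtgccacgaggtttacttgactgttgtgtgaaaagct
SNHG7: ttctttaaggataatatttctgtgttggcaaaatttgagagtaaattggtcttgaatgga
SNHG7 probe 2: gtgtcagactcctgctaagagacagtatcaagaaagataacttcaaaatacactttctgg
SNHG8: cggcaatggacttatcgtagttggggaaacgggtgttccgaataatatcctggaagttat
SNHG12: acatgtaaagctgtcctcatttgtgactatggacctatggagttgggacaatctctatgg

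The 7 lead probes and the further SNHG7 probe (chromosome 9, 139619969 to 139620028) rose well above background on each of the 24 arrays, and these 8 probes were tested. The other probes named SNHG1 and SNHG8 were not well above background on any of the 24 arrays and entered no test. The dim SNHG1 probe lies on the same strand from 62619488 to 62619547, next to the lead probe, and its mean intensity was at most 7.42 in any group. What the dim probes bind was not tested.

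Across all arrays, between 62.7% and 69.5% of probes were well above background and no probe was saturated. Values are given as normalized log2 signal, the log2 of the processed spot intensity minus the 75th percentile of its array. The line labels were checked with 4 genes driven by the antioxidant factor NRF2, which is constitutively active in A549, all 4 lower in H1975, and AKR1B10 stood at 7.07 in A549 and -2.09 in H1975. The 6 epithelial markers were well above background on every array. Of the other cell type markers reported, COL1A2, PECAM1 and VWF stood well above background on all 12 H1975 arrays and on none of the 12 A549 arrays, CD14 and COL1A1 were so on all arrays, PTPRC on 23 and CD3E on 1. Their part in the results was not tested.

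The arrays came from 4 runs, named here by the date that an array's name carries, and in each line and time a run held 1 PBS and 1 Pirfenidone array. The last number in an array's name, taken as its place on the slide, was the same for all arrays of a treatment and time. Pirfenidone and place therefore cannot be told apart, also within runs. In A549 at 24 h the pair of run 1, replicate 3 in both groups, stood apart. Over 23808 probes its Pirfenidone minus PBS difference correlated with an r of -0.38 and -0.55 with those of runs 2 and 3, while runs 2 and 3 correlated with an r of 0.39. In the other comparisons all such correlations lay between 0.29 and 0.64. The Pirfenidone minus PBS differences of the member probes in A549 at 24 h are therefore given with and without this pair.

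**Figure D1:**
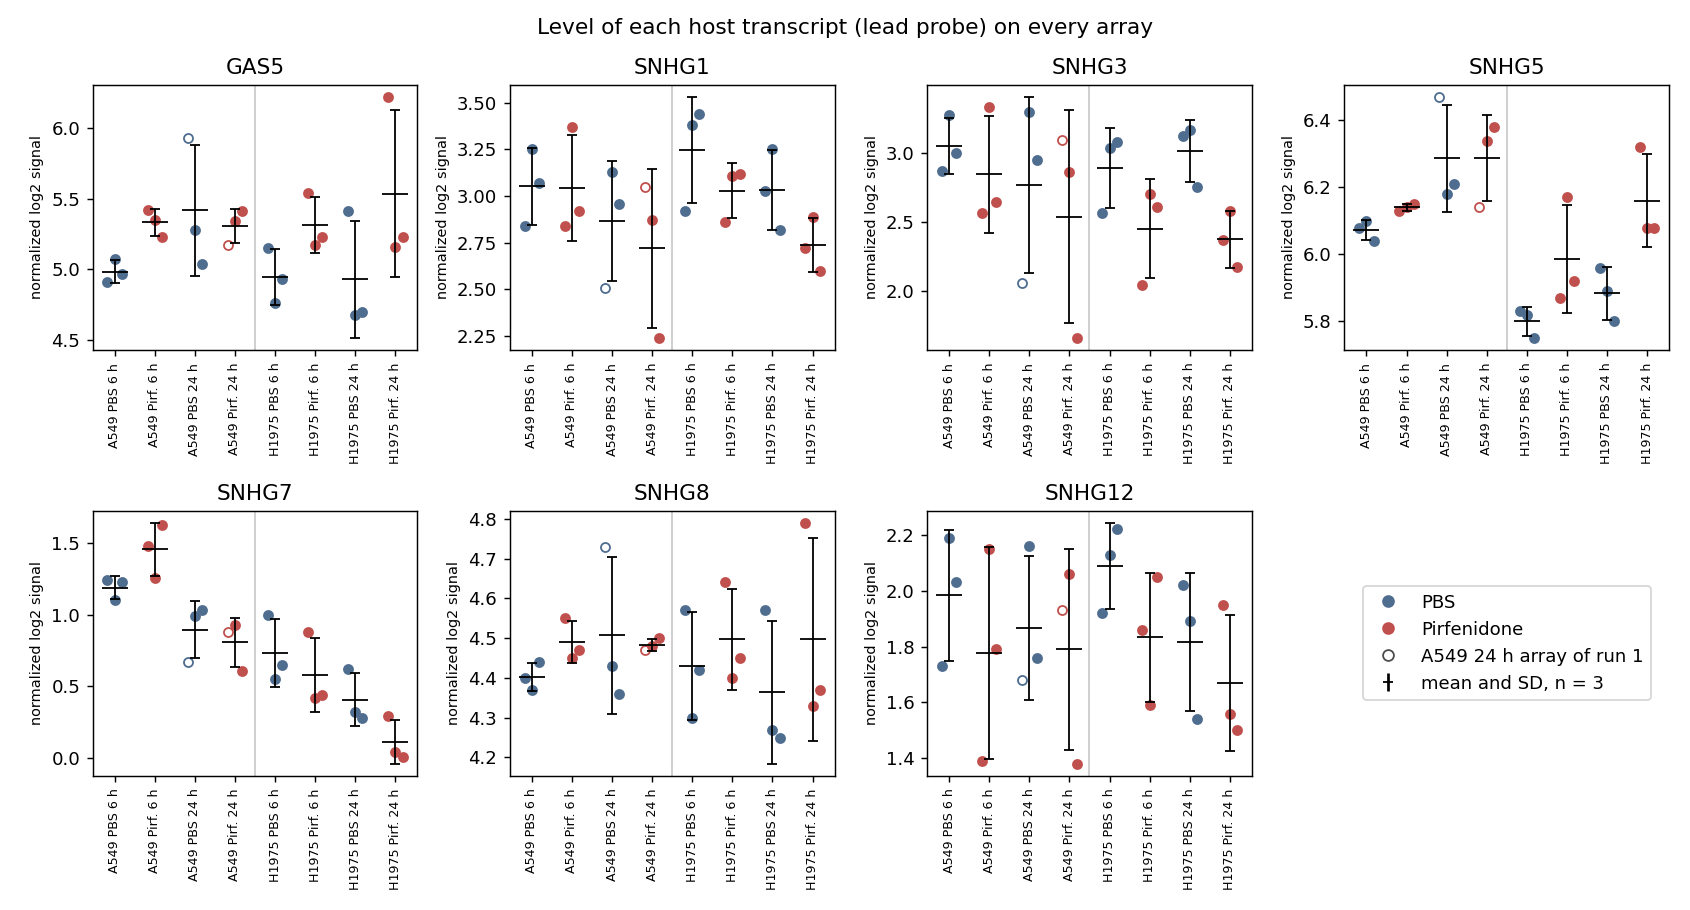
Normalized log2 signal of the lead probe of each host transcript on every array, in 8 groups with their mean and SD (n = 3); each panel has its own vertical range, and open circles mark the A549 arrays of run 1 at 24 h. GAS5 ranged from 4.68 to 6.22 and SNHG8 from 4.25 to 4.79, and the open circles of GAS5 and SNHG3 lie in the reverse order of the other A549 pairs at 24 h.

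The first question was whether Pirfenidone changed the host transcripts. No member probe passed in any of the 4 comparisons of Pirfenidone with PBS by limma, where passing means an adjusted p (Benjamini-Hochberg over 23827 probes) of at most 0.05. Of all probes, 0.34% passed in A549 at 6 h and 0.0126% at 24 h, and for H1975 the shares were 1.41% and 6.26%. An unadjusted p under 0.05 was reached by 2 of the 8 member probes in H1975 at 24 h, those of GAS5 and SNHG5, and by 0 in each of the other comparisons. The share of all probes at this unadjusted limit was not computed, so the count is not read as an excess among the members. The median log2 difference of the 7 lead probes was 0.06, -0.09, -0.15 and -0.14 in the order given, beside -0.01, -0.02, 0.05 and 0.02 over all tested probes. In RNA from whole cultures, fewer cells that hold a transcript and less of it per cell cannot be told apart.

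GAS5 had the largest positive difference. Its level in runs 1, 3 and 4 of H1975 at 24 h was 5.41, 4.68 and 4.70 with PBS and 6.22, 5.16 and 5.23 with Pirfenidone. The groups overlapped because the PBS array of run 1 lay above the Pirfenidone arrays of runs 3 and 4, but within every run the Pirfenidone array was higher, by 0.80, 0.48 and 0.53. The fitted log2 difference was 0.61 (standard error 0.26, 95% interval 0.07 to 1.14), a 1.52-fold higher level that did not pass (limma adjusted p = 0.171). With run as a block, which compares arrays within runs, the same difference passed (standard error 0.18, limma adjusted p = 0.0298), in a fit in which 21.8% of all probes passed. It did not pass with slide as a block (0.60, standard error 0.22, limma adjusted p = 0.0887), where 10.9% of all probes did. Nor did it pass with replicate number as a block (limma adjusted p = 0.0857), where 10.1% of all probes did.

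At 6 h in H1975, GAS5 was 5.15, 4.76 and 4.93 with PBS and 5.54, 5.17 and 5.23 with Pirfenidone. The Pirfenidone arrays lay above the PBS arrays without overlap, as for 10.6% of tested probes, with a log2 difference of 0.37 (standard error 0.26, limma adjusted p = 0.704). In A549 at 6 h the levels in runs 1, 2 and 3 were 4.91, 5.07 and 4.97 with PBS and 5.42, 5.35 and 5.23 with Pirfenidone, again without overlap (7.03% of probes), and the log2 difference was 0.35 (standard error 0.26, limma adjusted p = 1). In A549 at 24 h the PBS arrays read 5.93, 5.28 and 5.04 and the Pirfenidone arrays 5.17, 5.34 and 5.41. There the log2 difference was -0.11 with all arrays and 0.22 (standard error 0.29) without the pair of run 1, with limma adjusted p-values of 1 and 0.935.

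SNHG5, a box C/D host whose probe reads spliced RNA, varied least between arrays of a group, with an SD of at most 0.16. Its level in H1975 at 24 h was 5.96, 5.89 and 5.80 with PBS and 6.32, 6.08 and 6.08 with Pirfenidone. The lowest Pirfenidone array was above the highest PBS array, as for 16.3% of tested probes. The log2 difference of 0.28 (standard error 0.11, 95% interval 0.06 to 0.50) corresponds to 1.21-fold and did not pass (limma adjusted p = 0.124). At 6 h in H1975 the groups also did not overlap, as for 10.6% of tested probes. The levels were 5.83, 5.82 and 5.75 with PBS and 5.87, 6.17 and 5.92 with Pirfenidone (log2 difference 0.19, limma adjusted p = 0.579). In A549 the log2 difference was 0.06 at 6 h and 0.00 at 24 h, the latter 0.16 without the pair of run 1.

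SNHG3, a box H/ACA host, had the largest negative difference. Its level in H1975 at 24 h was 3.12, 3.16 and 2.75 with PBS and 2.37, 2.58 and 2.17 with Pirfenidone. All Pirfenidone arrays were below all PBS arrays, as for 15.6% of probes. The log2 difference was -0.64 (standard error 0.34, 95% interval -1.35 to 0.07, limma adjusted p = 0.281), with -0.75, -0.59 and -0.58 within the runs. At 6 h in H1975 the log2 difference was -0.44 (limma adjusted p = 0.759), negative in all 3 runs.

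In A549 at 24 h the SNHG3 arrays of runs 1, 2 and 3 read 2.06, 3.29 and 2.95 with PBS and 3.09, 2.86 and 1.66 with Pirfenidone. The differences within runs were 1.03, -0.43 and -1.29, so the mean of -0.23 joins opposite pairs. Without the pair of run 1 the log2 difference was -0.86 (standard error 0.34, limma adjusted p = 0.483), and once run was also a block its adjusted p was 0.0589. Every one of the 7 lead probes had the opposite sign in run 1 of this comparison from the mean of the other two runs. With all arrays SNHG1, SNHG7, SNHG8 and SNHG12 had log2 differences of -0.15, -0.09, -0.02 and -0.07. Without the pair these were -0.49, -0.24, 0.10 and -0.24, and none passed. Once run was also a block, the limma adjusted p of SNHG1 was 0.0917. The further SNHG7 probe was at -0.11 with all arrays and at -0.63 without the pair, and did not pass.

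In H1975 at 24 h the lead probes of the remaining members had smaller differences than those of GAS5 and SNHG3. SNHG1 in H1975 at 24 h was 3.03, 3.25 and 2.82 with PBS and 2.72, 2.89 and 2.60 with Pirfenidone, which overlapped, and the log2 difference was -0.30 (standard error 0.21, limma adjusted p = 0.459). SNHG7 read 0.62, 0.32 and 0.28 with PBS and 0.29, 0.04 and 0.01 with Pirfenidone, a log2 difference of -0.29 (standard error 0.16, limma adjusted p = 0.295) of like size in all 3 runs (-0.33, -0.28 and -0.27). SNHG8 and SNHG12, both box H/ACA hosts, had log2 differences of 0.13 and -0.14. All 7 lead probes in H1975 at 24 h thus kept 1 sign in all 3 runs, GAS5, SNHG5 and SNHG8 higher and SNHG1, SNHG3, SNHG7 and SNHG12 lower, where 34.6% of all tested probes were higher in every run and 30.6% lower. When the A549 pair of run 1 was left out and run was a block together, GAS5 (limma adjusted p = 0.00436), SNHG5 (0.0184), SNHG3 (0.023) and SNHG7 (0.0377) passed in H1975 at 24 h, the first 2 higher and the others lower, in a fit in which 32.7% of all probes passed.

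**Figure D2:**
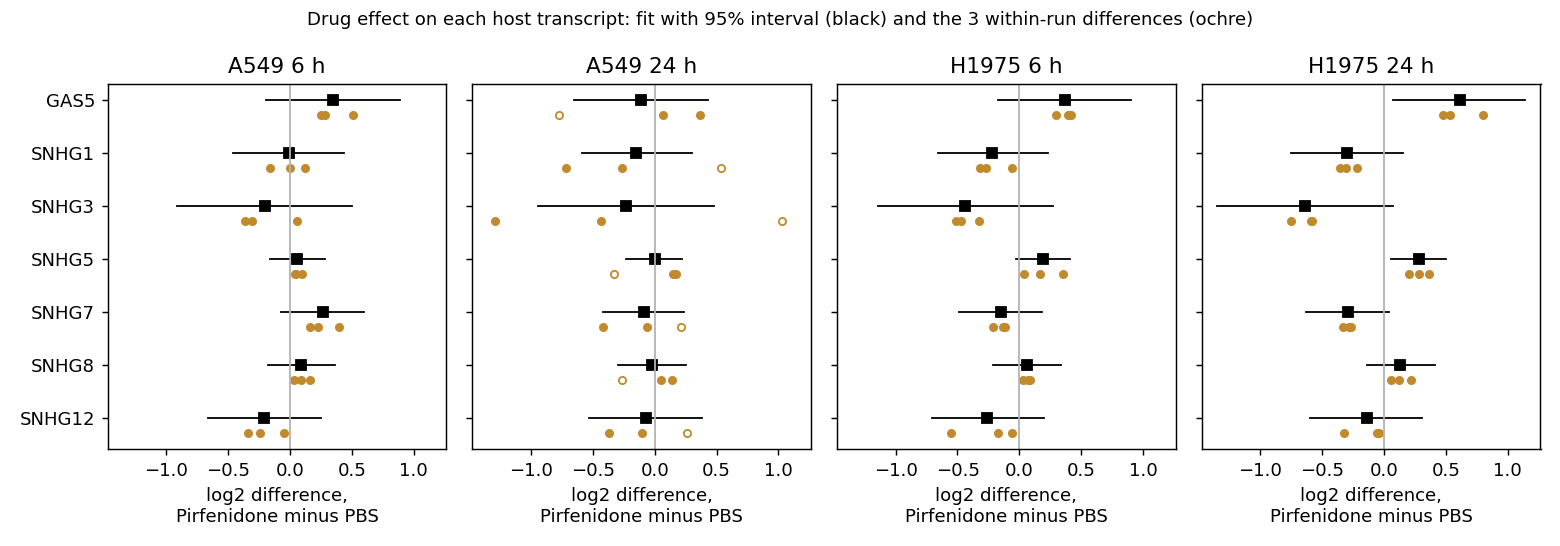
Log2 difference of Pirfenidone minus PBS for the lead probe of each host transcript in 4 comparisons, with the fitted value and its 95% interval in black and the 3 differences within runs in ochre (the open circle is run 1 of A549 at 24 h). The intervals of GAS5 and SNHG5 in H1975 at 24 h do not reach 0, while no probe passed after adjustment over all probes.

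In A549 at 6 h, GAS5, SNHG5, SNHG7 and SNHG8 had no overlap, with Pirfenidone above PBS, as for 7.03% of all tested probes. SNHG7 lay between 1.1 and 1.24 with PBS and read 1.48, 1.26 and 1.63 with Pirfenidone, a log2 difference of 0.27 (standard error 0.16, limma adjusted p = 1). SNHG8 and SNHG5 did so with log2 differences of only 0.09 and 0.06. The further SNHG7 probe lies upstream of the lead probe on the gene's strand, and the array assigns it to another RefSeq transcript. It had a log2 difference of -0.39 (standard error 0.43) in this comparison, so the probes of SNHG7 differ in sign at 6 h in A549. In H1975 both were negative at both times, with -0.41 and -0.56 for the further probe.

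The differences between responses were tested directly. No member probe passed for H1975 minus A549 at 6 h or 24 h, nor for 24 h minus 6 h in either line, where 0.0378%, 0.239%, 0.0294% and 0.00839% of all probes passed. The largest was GAS5 between the lines at 24 h, with a log2 difference of 0.71 (standard error 0.36, limma adjusted p = 0.45), which came to 0.38 without the A549 pair of run 1.

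Between the untreated lines, the mean of the PBS groups at both times was compared, a contrast in which 70.1% of all probes passed and 32.8% were lower in H1975. Among the 8 member probes 2 passed, both lower in H1975. SNHG5 was lower by a log2 difference of -0.34 (standard error 0.07, limma adjusted p = 0.000483), with PBS arrays from 5.75 to 5.83 at 6 h in H1975 against 6.04 to 6.10 in A549. SNHG7 was lower by -0.48 (standard error 0.11, limma adjusted p = 0.000907) at its lead probe. The further SNHG7 probe went the other way, 0.63 (standard error 0.30, limma adjusted p = 0.0718). It passed as higher in H1975 with run as a block (limma adjusted p = 0.0351), in a fit in which 78% of all probes passed. Blocks were coded within each line, so this fit did not compare the lines within runs. No slide held both lines, so line and slide cannot be told apart. Without a block, the mean of both SNHG7 probes gave 0.08 (limma adjusted p = 0.683), so no direction for the gene as a whole is given. GAS5 (-0.26), SNHG1 (0.18), SNHG3 (0.04), SNHG8 (-0.06) and SNHG12 (0.03) did not pass.

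Ordered by group mean, most neighboring groups had overlapping arrays. SNHG7 spread most, by 1.35 from A549 with Pirfenidone at 6 h (1.46 ± 0.18, SD, n = 3) to H1975 with Pirfenidone at 24 h (0.11 ± 0.16), and 2 of its 7 neighboring pairs did not overlap, the highest against the second, A549 with PBS at 6 h, and that against the third, A549 with PBS at 24 h. GAS5 spread by 0.60, with 1 such gap, between H1975 with Pirfenidone at 6 h (5.31 ± 0.20) and A549 with PBS at 6 h (4.98 ± 0.08). SNHG5 spread by 0.49, also with 1 gap, between the A549 groups at 6 h. The gaps of GAS5 and SNHG5 hold for the named neighbors only. Ranked below the GAS5 gap, H1975 with PBS at 24 h reached 5.41. Ranked below the SNHG5 gap, H1975 with Pirfenidone at 6 h reached 6.17. The share of all probes with such gaps was not computed. SNHG1, SNHG3, SNHG8 and SNHG12 had none, and SNHG8 spread by only 0.15.

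The members did not vary together as 1 set. Over the 24 arrays, after the mean of each line was subtracted, the 21 pairs of lead probes had a median Pearson r of 0.02, and 11 were positive. GAS5 and SNHG8 had an r of 0.91, GAS5 and SNHG5 0.73, SNHG1 and SNHG3 0.90, SNHG1 and SNHG12 0.75, and SNHG3 and SNHG12 0.68. The lowest was SNHG1 with SNHG5, at -0.61. These arrays share runs, treatments and times, so the values are a description. Among the genes with the most similar course by this measure were ZMYM2, TTC39B and NHLRC3 for GAS5 (r of 0.96, 0.94 and 0.93), RBCK1, KIAA0319L and TAZ for SNHG5 (0.95, 0.92 and 0.91), WDR20 and SSH2 for SNHG7 (0.95 and 0.92), and SPATA25, CCZ1 and GATAD1 for SNHG8 (0.92, 0.91 and 0.91). For SNHG1 they were COL27A1 and RNASEH2C (0.94 and 0.90), for SNHG3 the host gene SNHG20, RNASEH2C and the transcript BC066989 (0.95, 0.92 and 0.92), and for SNHG12 GRASP, ZNF493 and MRPS25 (0.87, 0.86 and 0.85).

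Related gene lists gave the setting of these values. Of 11 other small nucleolar RNA host genes tested, EPB41L4A-AS1 was higher (log2 difference 0.51, standard error 0.10, limma adjusted p = 0.00698) and SNHG9 lower (-0.86, standard error 0.20, adjusted p = 0.0158) in H1975 at 24 h, where 6.26% of all probes passed, and the list's median was 0.02. None passed in the other comparisons, where the largest differences were -0.59 for SNHG9 in H1975 at 6 h (adjusted p = 0.183), -0.36 for SNHG10 in A549 at 6 h and -0.37 for SNHG20 in A549 at 24 h (both 1). Without the A549 pair of run 1, or with run as a block, 2 were higher and 1 lower in H1975 at 24 h, and without the pair 1 was also lower at 6 h. Of all probes, 11.1% and 21.8% passed at 24 h in these fits, and 2.2% at 6 h without the pair.

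A list of 13 stress response mRNAs, most of them also known targets of nonsense-mediated decay, rose in part. In H1975 at 24 h 8 of 13 passed, all higher, among them CHAC1, which degrades glutathione (2.77, standard error 0.36, limma adjusted p = 0.000378), SESN2, a restrainer of mTORC1 (1.79, adjusted p = 0.00829), DDIT3, the stress factor CHOP (1.71, adjusted p = 0.0221), and ATF3 (1.35, adjusted p = 0.011). At 6 h 5 passed in H1975, led by CHAC1 (3.20), DDIT3 (2.08), SESN2 (1.86) and ATF4 (0.75), and 3 in A549, CHAC1 (2.29), DDIT3 (2.19) and CARS1, a transfer RNA synthetase (0.66). In A549 at 24 h none passed, with ATF3 at -0.38 (adjusted p = 1). Without the A549 pair of run 1 the counts were 4 and 0 in A549 and 5 and 8 in H1975, at 6 h and 24 h, and with run as a block they were 4 and 0 and 7 and 9. The shares of all probes without the pair were 0.734% and 0.0588% in A549 and 2.2% and 11.1% in H1975. With run as a block they were 1.65% and 0.042% in A549 and 6.83% and 21.8% in H1975. This list was chosen with results of these arrays known and is not independent evidence of its direction. The list's median in H1975 at 24 h was 0.73, against -0.14 for the 7 host transcripts.

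Of 23 factors of nonsense-mediated decay, RBM8A, a core protein of the exon junction complex, was lower in H1975 at 24 h (-0.50, standard error 0.13, limma adjusted p = 0.03). The other 22 did not pass, and the list's median there was -0.25. None passed in the other comparisons, where the largest differences were SMG8 (-0.30) and GSPT1 (0.23) in A549 at 6 h and 24 h and ETF1 (-0.44) in H1975 at 6 h. Without the A549 pair of run 1 the count in H1975 at 24 h was 2, and with run as a block it was 3, with 2 at 6 h, all lower. In those fits 11.1% and 21.8% of all probes passed at 24 h, and 6.83% at 6 h with run as a block. Splicing factors whose own mRNAs carry poison exons, and so form decay targets, were lower in 5 of 14 cases in H1975 at 24 h, with a median of -0.54. The 5 were SRSF2 (-0.76), TRA2A (-0.65), TRA2B (-0.58), SRSF3 (-0.55) and HNRNPH1 (-0.53), and the probes do not separate forms with the poison exon from those without. None passed in the other comparisons, where the largest were SRSF1 in A549 (-0.63) and H1975 (-1.12) at 6 h and TRA2A (-0.16) in A549 at 24 h. Without the A549 pair of run 1, 8 of the 14 passed in H1975 at 24 h and 2 at 6 h, all lower, and with run as a block 9 and 2 did. The shares of all probes were 11.1% and 2.2% without the pair, and 21.8% and 6.83% with run as a block.

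**Figure D3:**
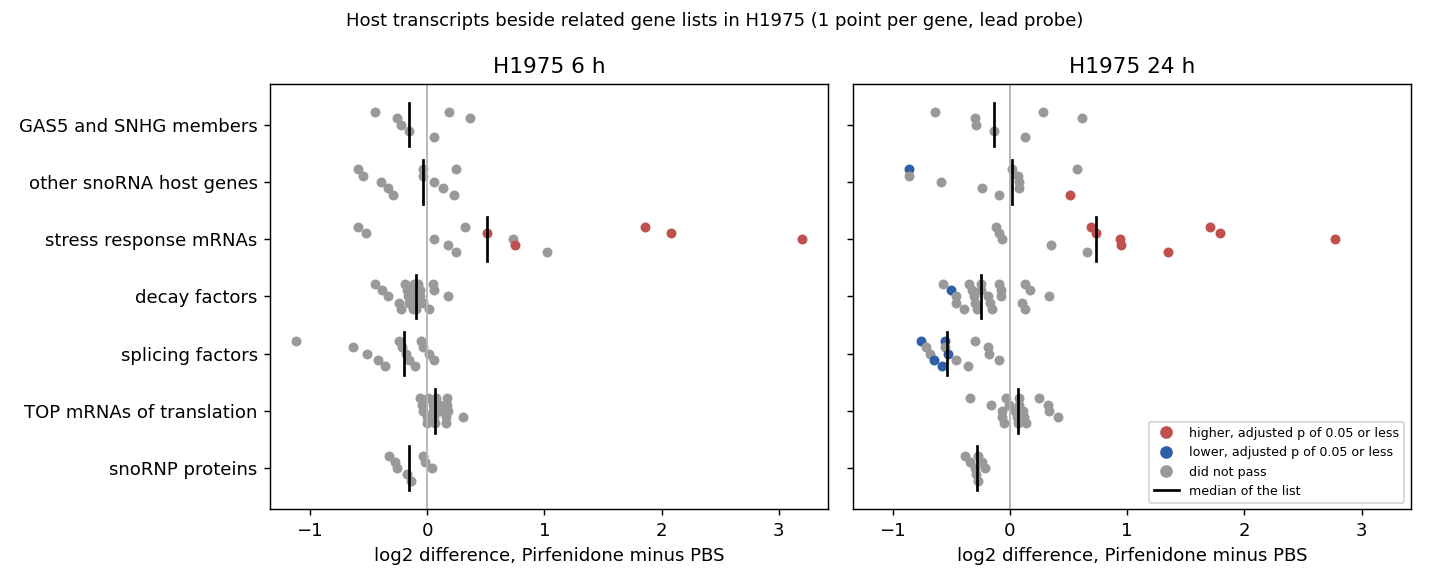
Log2 difference of Pirfenidone minus PBS in H1975 at 6 h and 24 h for the 7 host transcripts and 6 related gene lists, 1 point per tested gene, colored where the adjusted p was 0.05 or less, with the median of each list as a bar. No host transcript passed, 8 of 13 stress response mRNAs were higher at 24 h, and 5 of 14 splicing factors were lower.

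Several host transcripts start with a terminal oligopyrimidine run, a C followed by pyrimidines, which couples translation to growth signals in ribosomal protein mRNAs. A run of a C and at least 4 further pyrimidines, in a pyrimidine stretch that began within 10 bases of the RefSeq start on GRCh38.p14 and was read on the gene's strand only, was found in 4 of the 7 members and in 31% of 35116 promoters. The 40 bases around the start are printed with the run in capitals.
SNHG5 start: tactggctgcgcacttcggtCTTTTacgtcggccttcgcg
SNHG7 start: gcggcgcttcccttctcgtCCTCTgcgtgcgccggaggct
SNHG8 start: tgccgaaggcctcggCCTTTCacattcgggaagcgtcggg
SNHG12 start: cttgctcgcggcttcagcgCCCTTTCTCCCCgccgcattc

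GAS5, SNHG1 and SNHG3 had no such run at the RefSeq start. A single RefSeq start per member was read, so a run at another start of these genes would be missed. The 4 members where the run was found were of both signs in H1975 at 24 h. The letters TGATGNAA, a binding motif of ATF4 with its partners, were in none of the 7 promoters of 300 bases on either strand and in 3.62% of all promoters. CACGTG, the E-box of MYC, was in that of SNHG7 and in 7.26% of all. Of 19 protein-coding mRNAs of translation with an oligopyrimidine start, none passed in any comparison of Pirfenidone with PBS. In H1975 at 24 h 1 was higher without the A549 pair of run 1, where 11.1% of all probes passed. With run as a block 2 were higher and 1 lower, where 21.8% of all probes passed. The largest was EIF4A2, which encodes an RNA helicase of the initiation machinery, in H1975 at 24 h (0.41, limma adjusted p = 0.0979) and at 6 h (0.31), with NACA (-0.10) and HNRNPA1 (0.11) in A549 at 6 h and 24 h. Among 8 proteins of small nucleolar ribonucleoproteins none passed either. DKC1, the pseudouridine synthase of box H/ACA particles, was at -0.38 (adjusted p = 0.119) in H1975 at 24 h and -0.32 at 6 h, NOP56 at -0.31 in A549 at 6 h and SNU13 at 0.06 in A549 at 24 h. Without the A549 pair of run 1, 3 of these 8 passed in H1975 at 24 h, and with run as a block 2 did, all lower. The shares of all probes that passed there were 11.1% and 21.8%.

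SNHG3 could be set beside probes named for RNAs encoded within it. Whether these probes read the small RNAs themselves or longer RNA that contains them was not tested. The array holds 3 probes named for SNORA73A and SNORA73B, H/ACA RNAs that lie inside SNHG3 on GRCh38.p14 and act in ribosomal RNA processing, and all were well above background on all 24 arrays. In H1975 at 24 h their log2 differences were 0.01, -0.05 and -0.08 (standard errors 0.18, 0.20 and 0.20), against -0.64 for the host. Their intervals, from -0.36 to 0.38 for SNORA73A and from -0.50 to 0.37 over the SNORA73B probes, overlap that of SNHG3. The difference between the host probe and these probes was not tested. In A549 with all arrays the 3 probes lay from -0.33 to -0.24 at 6 h, where SNHG3 was at -0.20. At 24 h they lay from -0.29 to -0.24 and SNHG3 was at -0.23, but these means join unlike runs. Within runs 1, 2 and 3 SNORA73A differed by 0.18, 0.13 and -1.02. The SNORA73B probes differed by 0.14, 0.13 and -1.14 and by 0.26, 0.01 and -1.10, and SNHG3 by 1.03, -0.43 and -1.29. Without the pair of run 1 SNHG3 was at -0.86, while values without it are not given for the 3 probes. In H1975 at 6 h they lay from -0.17 to -0.01, against -0.44 for SNHG3. No drug comparison passed for any of the 3. Between the untreated lines all 3 were higher in H1975, by 0.44, 0.43 and 0.42 (limma adjusted p = 0.0045, 0.0121 and 0.0121), while SNHG3 was at 0.04 (standard error 0.24). In that contrast 70.1% of all probes passed and 37.4% were higher in H1975.

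**Figure D4:**
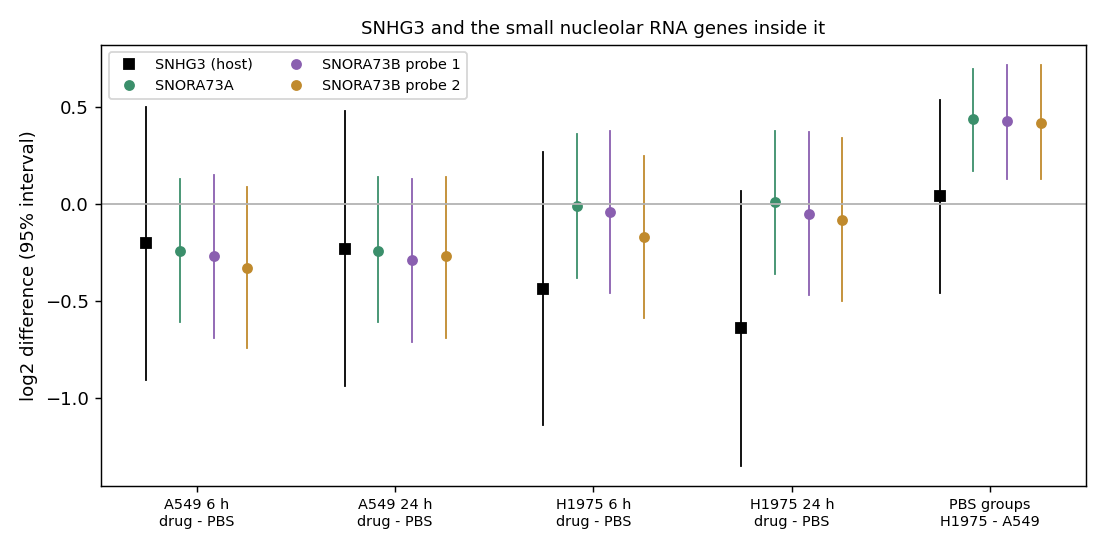
Log2 difference with its 95% interval for SNHG3 and for the 3 probes named for small nucleolar RNAs inside it, in 4 comparisons of Pirfenidone with PBS and in H1975 minus A549 over the PBS groups. The 3 small RNA probes lie between 0.42 and 0.44 in the comparison of lines and between -0.08 and 0.01 in H1975 at 24 h. In A549, with all arrays, they lie between -0.33 and -0.24 at 6 h, with SNHG3 at -0.20. At 24 h they lie between -0.29 and -0.24 with SNHG3 at -0.23, means that join unlike runs.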

How the data were processed

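The authors labeled total RNA with a one-color Agilent kit, and deposited the spot intensity of every array after background subtraction by Agilent's extraction software. Their own log2 values, deposited as 1 table, served as an alternative here, and their differences between arrays correlated with those of the scanner values (Pearson r of 0.9998). Per the file headers, probe positions are on hg19.

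Here, outlier spots were left out, spots of a probe were averaged, and each array's 75th percentile was subtracted from the log2 intensity. A model fitted with limma (version 3.58.1, R 4.3.3, functions lmFit and eBayes) joined the 8 groups, leaving 16 residual degrees of freedom. Tested were the 23827 probes that some group had well above background on its 3 arrays, with Benjamini-Hochberg adjustment over all of them. A probe passed at an adjusted p of 0.05 or less. The tests were checked on simulated data. The number of arrays, 3 a group, limits the precision.

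The members and the gene lists were chosen with earlier results of these data known. Every member was named with all its probes, and from each list up to 4 genes with the largest change among those that passed, or the 1 largest where none did, and for each member the 3 genes with the highest correlation. Some genes that this rule or the marker lists name are not reported here.

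Deviations of same-numbered PBS and Pirfenidone arrays correlated with r from 0.58 to 0.70 in A549 at 6 h, -0.10 to 0.39 in A549 at 24 h, -0.68 to 0.43 in H1975 at 6 h and 0.46 to 0.72 in H1975 at 24 h. Since not every pair exceeded 0.1, the numbers were not taken as a pairing. Same-numbered arrays shared a run except in H1975 at 6 h, where pairs by run gave 0.50 to 0.82. Alternatives were other background corrections, normalizations, filters, blocks, adjustments and call rules, and arrays left out. The Westfall-Young adjustment of the study was not run, since 3 arrays against 3 cannot reach its threshold. Sequences are those of the array files and of RefSeq, GRCh38.p14.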

Additional observations from a re-analysis of the deposited data

How the results depend on the processing

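Of 2333 values for single lead probes under alternative settings, 2323 kept their side of the threshold without reversing a call. Of these, 2230 also kept their sign, while 93, from -0.13 to 0.41, changed it with neither value passing, 22 of them with the A549 pair of run 1 left out and 61 with 1 array left out. No member probe passed for A549 at 6 h or 24 h, H1975 at 6 h, or the differences between lines and times, under any of the 37 settings. In H1975 at 24 h the count was 0, but 1 with run as a block and 4 with run as a block and the A549 pair of run 1 left out, a setting chosen after seeing the data. With the replicate block, in which the replicate number pairs the arrays, the count stayed at 0 in the 4 drug comparisons and their differences, and between the untreated lines it was 3, since the further SNHG7 probe passed as higher in H1975. That count was also 3 with run as a block, with the arrays compared alone, and with run as a block and the A549 pair left out. Of all probes, 73.7% passed between the untreated lines with the replicate block and 78% with run as a block. With run as a block and the A549 pair left out, 79.1% did. Between the untreated lines the count of 2 became 4 without a filter on dim probes, which brings in the SNHG1 and SNHG8 probes not well above background on any array, 0 with Holm adjustment and 0 with a fold change of at least 2. The log2 difference of SNHG7 there reversed to 0.08 as the mean of both its probes. Leaving out each array in turn gave counts from 0 to 0 in the drug comparisons and their differences, and from 2 to 3 between the untreated lines, with 3 without A549 PBS replicate 1 at 6 h or 24 h, H1975 PBS replicate 1 at 6 h or H1975 PBS replicate 2 at 24 h. A slide block could not be fitted for the untreated lines, since no slide holds both. With normexp background correction the median of all probes in H1975 at 6 h was 0.29, against 0.05. Where no value shows the cause, the cause was not tested. The number of arrays limits what could pass, and the dim probes of SNHG1 and SNHG8 give no level.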
